A study of Mus musculus with 24 samples.

Results

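Foxa1 and Foxa2 each bind many sites in hepatocyte-like cells, and a set of these sites had a called peak in both of their lines and no called Foxa3 peak in the Foxa3 line. The set was defined on chromatin immunoprecipitation sequencing (ChIP-seq), which maps where a protein sits on DNA as peaks of sequenced fragments. Peaks of 9 lists from induced hepatocyte-like (iHep) cells were merged wherever they overlapped by at least 1 bp. Members were selected on the peak calls themselves: a merged region was kept if it held a peak in at least 1 list of line 4a1 and at least 1 list of line 4a2, and no peak in any list of line 4a3. This gave 2395 of 16880 merged regions. Because the calls chose the members, their number, ranks, widths, list counts and peak distances are described below without a test.

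The iHep cells were made from C57BL/6 mouse embryonic fibroblasts taken at 13.5 days post coitum. Line 4a1 was infected with Foxa1 and Hnf4alpha, line 4a2 with Foxa2 and Hnf4alpha, and line 4a3 with Foxa3 and Hnf4alpha, so Hnf4alpha was introduced in all 3. Each line was profiled with the antibody to its own Foxa factor in 3 libraries, 2 with the term EGS in their title and 1 without (non-EGS). The labels do not spell out EGS. Since each line had its own factor and its own antibody, effects of these 3 cannot be told apart. The labels number the samples of a line, here called replicates, and do not say whether these are separate inductions or clones. Lists that the rule did not use served as readouts. A Flag antibody, against an epitope tag, was used in lines 4a2 and 4a3 (1 EGS library each), whose Foxa lists the rule did use. Foxa1, Foxa2 and Foxa3 antibodies were used in hepatocytes from livers of 10-week-old adult C57BL/6 mice (1 EGS library each). The labels do not name the tagged protein. Peak lists hold no expression values, so cell identity was not checked.

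Foxa proteins are winged-helix forkhead transcription factors of liver and other organs of endodermal origin. The forkhead domain, whose fold resembles that of linker histones, is nearly the same in Foxa1, Foxa2 and Foxa3, while the regions outside it differ more. Foxa1 and Foxa2 are known as pioneer factors, which can bind their motif on DNA wrapped around nucleosomes, and together they are needed for the liver to form. Hnf4alpha is a nuclear receptor that maintains hepatocyte gene expression.

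The lists differ in length, which bounds every count that follows. Foxa1 had 3431 non-EGS peaks and EGS lists of 940 and 542 peaks. Foxa2 had 11408 non-EGS peaks and EGS lists of 957 and 1040. Foxa3 had 4317 non-EGS peaks and EGS lists of 1246 and 46. The Foxa3 non-EGS peaks were narrower, with a median width of 180 bp against 417 bp for Foxa1 and 458 bp for Foxa2. They covered 1134 kb, against 1487 kb and 5473 kb. Many also lay close together: 52.7% of the merged regions of line 4a3 only had another such region within 1 kb. No reads were counted in these lists, so the sequencing depth is unknown. A member is therefore a region where no Foxa3 peak was called, which does not measure that Foxa3 was absent there.

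Members made up most of the Foxa1 sites and a smaller share of the Foxa2 sites. Of the 3953 merged regions with a Foxa1 peak, 60.6% (95% exact Clopper-Pearson interval 59.0 to 62.1) were members, and of the 11670 with a Foxa2 peak, 20.5% (19.8 to 21.3). All intervals cover counting error over regions, not the spread between libraries. Of the 2813 regions bound in both lines, 85.1% (83.8 to 86.4) held no Foxa3 peak and 418 held one. The other pairings of lines were rarer: 351 regions were shared by 4a2 and 4a3 without 4a1, and 20 by 4a1 and 4a3 without 4a2. For comparison, 8506 regions lay in line 4a2 alone and 1120 in line 4a1 alone. A Foxa3 peak was thus more frequent at jointly bound regions than at regions with a peak of only 1 of these lines.

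Most members rested on the non-EGS pair of lists. The Foxa2 non-EGS list held a peak in 2371 members and the Foxa1 non-EGS list in 2157. The EGS lists held fewer: 561 and 237 members for Foxa1 (replicates 1 and 2), and 337 and 280 for Foxa2 (replicates 1 and 2). Both non-EGS lists had a peak in 2156 members, and in 1566 of them (65.4%, 63.4 to 67.3, of all members) no EGS list did. The count of members was 667 without the Foxa1 non-EGS list and 487 without the Foxa2 non-EGS list, so each of these 2 libraries carries most of the set.

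A smaller core was found again and again. A total of 698 members (29.1%, 27.3 to 31.0) had a peak in 3 or more of the 6 Foxa1 and Foxa2 lists, 214 had one in at least 2 lists of each line, and 37 had one in all 6. A further 70 members were in 5 lists, 204 in 4 and 387 in 3. EGS peaks of both lines were present in 319 members (13.3%, 12.0 to 14.7). Only 23 members had no peak in either non-EGS list.

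**Figure D1:**
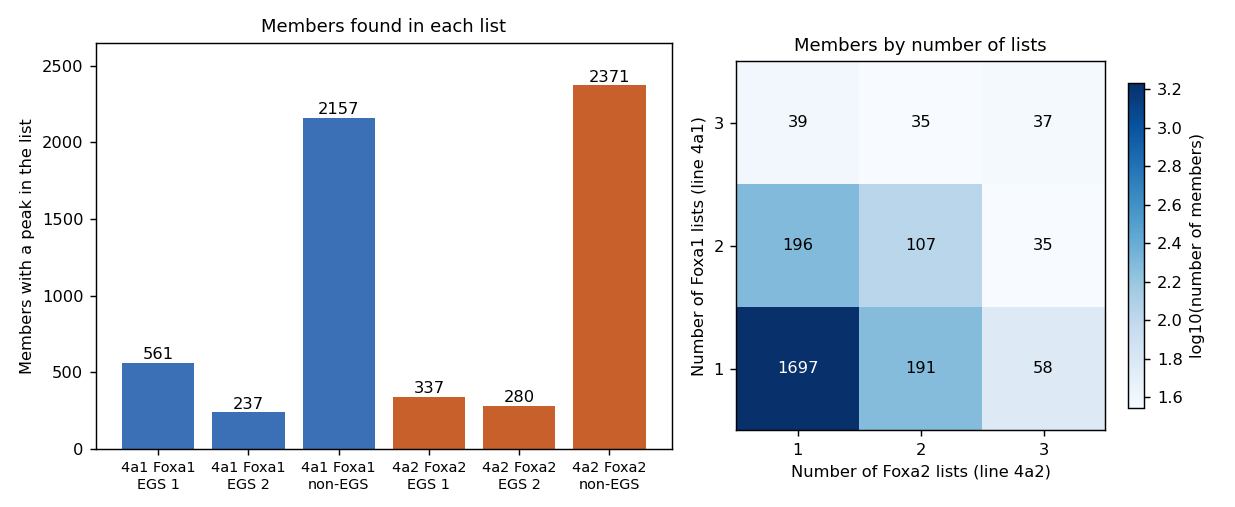
Left, number of members (y axis) with a peak in each of the 6 Foxa1 (blue) and Foxa2 (orange) lists of iHep cells. Right, members by the number of Foxa1 lists (y axis) and Foxa2 lists (x axis) that hold a peak, coloured by log10 of the number. The non-EGS lists hold 2157 and 2371 members, and 1697 members have a peak in 1 list of each line.

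Between EGS lists the overlap of members differed by library. Of the 337 members in the Foxa2 EGS list of replicate 1, 205 (60.8%) were in the Foxa1 EGS list of replicate 1 and 88 (26.1%) in that of replicate 2. Of the 280 members in the Foxa2 EGS list of replicate 2, the numbers were 184 (65.7%) and 80 (28.6%). Seen from the Foxa1 lists, the shares were close to each other: 36.5% and 32.8% of the 561 members of replicate 1, and 37.1% and 33.8% of the 237 members of replicate 2. The titles end in codes that the labels do not explain. The code of the Foxa1 EGS library of replicate 1 has the same digits as those of both Foxa2 EGS libraries (in 1 of them without its letter), and that of the Foxa1 EGS library of replicate 2 differs. The latter list is also shorter, so what goes with the code and what goes with the length of the list cannot be told apart.

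By score, members stood between the sites of all 3 lines and the sites of a single line. The score is the authors' value for each peak, and its percentile is the share of peaks in the same list scored at or below it. In the Foxa2 non-EGS list the median percentile was 78.0 for peaks in members, 90.8 for peaks in regions of all 3 lines and 41.3 for peaks found in line 4a2 alone. In the Foxa1 non-EGS list the medians were 55.5, 67.5 and 35.4 for line 4a1 alone. The same order held in both Foxa2 EGS lists (52.3, 63.1 and 37.4 for replicate 1, and 43.8, 65.7 and 40.5 for replicate 2) and in the Foxa1 EGS list of replicate 1 (50.8, 64.5 and 36.8). It did not hold in the Foxa1 EGS list of replicate 2, where peaks of line 4a1 alone had the highest median (72.1, against 40.4 for members and 50.9 for all 3 lines).

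Members were a larger part of the non-EGS lists toward the top of them. In the Foxa2 non-EGS list they made up 5.08% (3.88 to 6.52) of the lowest-scoring 10% and 59.2% (56.2 to 62.03) of the highest-scoring 10%. The increase was steepest at the top. With the list cut into 10 equal steps from the lowest score, the share was 20.5% (18.2 to 23.0) in step 7, 26.2% (23.7 to 28.9) in step 8 and 38.9% (36.1 to 41.8) in step 9. In the Foxa1 non-EGS list the range was narrower, from 53.1% (47.6 to 58.4) in step 1 to 71.4% (66.3 to 76.2) in step 10, with its highest value, 73.8% (68.8 to 78.3), in step 8. Regions of all 3 lines reached 18.5% (16.3 to 20.9) and 22.2% (17.9 to 26.9) in step 10 of the Foxa2 and Foxa1 lists.

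Among the very highest peaks, the share of members was far above that of the whole list only in the Foxa2 non-EGS list. Of the 100 highest-scoring Foxa2 non-EGS peaks, 57 lay in members, 42 in regions of all 3 lines and 1 in a region of line 4a2 alone. Of the highest 101 Foxa1 non-EGS peaks (the last place is tied), 64 lay in members and 32 in regions of all 3 lines. Over the whole lists, members held 20.8% of the Foxa2 and 62.9% of the Foxa1 non-EGS peaks. At the top these shares were 57% and 63.4%. The EGS lists differed in this respect: of the highest 101 Foxa1 EGS peaks of replicate 1, 37 lay in members and 62 in regions of all 3 lines. Of the highest 106 and 102 Foxa2 EGS peaks of replicates 1 and 2, again with ties, 37 and 23 lay in members and 45 in each case in regions of all 3 lines. In the Foxa1 EGS list of replicate 2, 22 of the highest 102 peaks lay in members, 35 in regions of all 3 lines and 45 in regions of line 4a1 alone. In each EGS list the share of members was lower at the top than over the whole list. For Foxa1 it was 36.6% against 61.1% (replicate 1) and 21.6% against 44.1% (replicate 2). For Foxa2 it was 34.9% against 35.7% (replicate 1) and 22.5% against 27.2% (replicate 2).

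**Figure D2:**
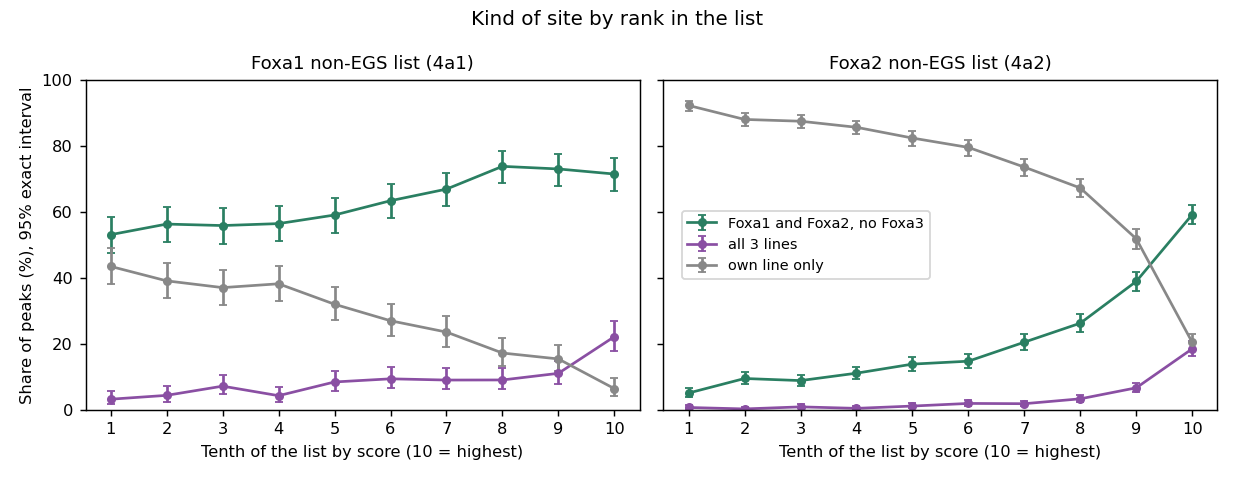
Share of peaks (y axis, %, with 95% exact intervals) in members, in regions of all 3 lines and in regions of the list's own line alone, by step of 10% of the list by score (x axis, 10 is the highest) in the Foxa1 (left) and Foxa2 (right) non-EGS lists. In the Foxa2 list members rise from 5.08% in the lowest step to 59.2% in the highest.

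The share of jointly bound regions without a Foxa3 peak fell as more lists held the region. It was 95.7% (94.7 to 96.6) of the 1773 regions in 2 Foxa1 and Foxa2 lists, 79.0% (75.1 to 82.5) of 490 in 3 lists and 67.1% (61.5 to 72.4) of 304 in 4 lists. It was 44.6% (36.7 to 52.7) of 157 in 5 lists and 41.6% (31.2 to 52.5) of 89 in all 6. Split by the Foxa2 non-EGS score, it was 93.8% (89.1 to 96.8) in the lowest 20% of that list and 79.6% (77.4 to 81.7) in the highest 20%. The sites held most often by Foxa1 and Foxa2 lists were thus also those most often held by a Foxa3 list, and 37 of 89 had none.

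Ranks in the Foxa1 and Foxa2 non-EGS lists followed each other loosely across members, and those in most other pairs of lists less so. Over the 2156 members with both non-EGS peaks, the percentiles had a Pearson r of 0.31 and a Spearman rho of 0.36. Each value describes regions of 1 pair of libraries, and the points share both libraries. Between a Foxa1 and a Foxa2 EGS list rho was 0.13 to 0.19. Between the Foxa1 non-EGS list and the Foxa2 EGS lists it was 0.04 and -0.04. Within the same factor, rho between the EGS replicates was 0.14 for Foxa1 and 0.36 for Foxa2. Between non-EGS and EGS lists of the same factor it was 0.29 and 0.12 for Foxa1 and 0.08 and -0.03 for Foxa2. A total of 988 members (45.8%, 43.7 to 48.0) lay in the upper 50% of both non-EGS lists and 155 (7.19%, 6.13 to 8.36) in the upper 10% of both. Another 675 (31.3%, 29.4 to 33.3) lay in the lower 50% of the Foxa1 list and the upper 50% of the longer Foxa2 list, and 206 (9.55%, 8.35 to 10.9) were placed the other way round.

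**Figure D3:**
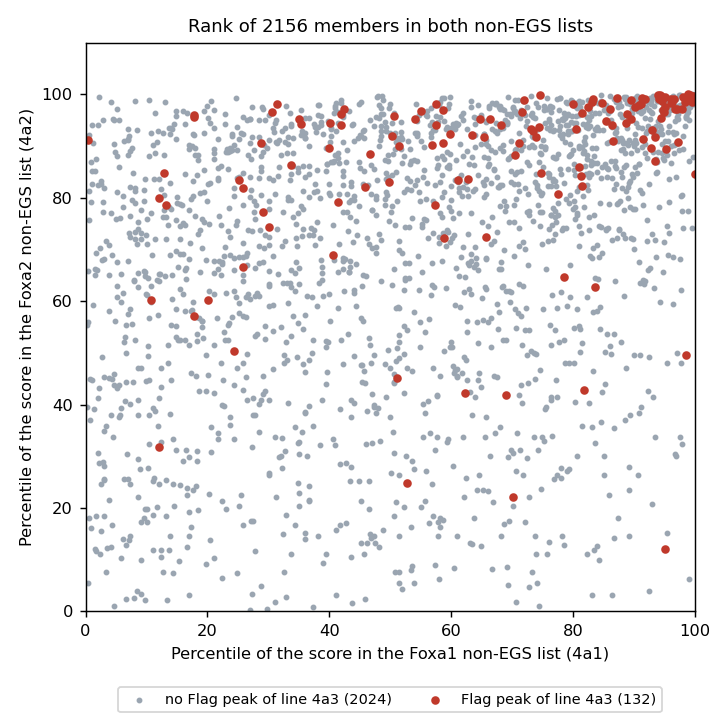
Percentile of the score in the Foxa1 non-EGS list (x axis) and in the Foxa2 non-EGS list (y axis) for the 2156 members with a peak in both, 1 point per member. Red points are the members with a Flag peak of line 4a3, and more of them lie toward the upper right.

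Within members, the middles of the Foxa1 and Foxa2 peaks lay close together. The rule joined overlapping peaks into members and so favours close middles, and these distances are a description only. In 2154 members with a single peak in each non-EGS list, the middles of the peaks were a median of 29 bp apart, and 72.9% (1571 members) were within 50 bp. In 30 members (1.39%) they were more than 200 bp apart. The signed difference, Foxa1 minus Foxa2, had a median of 0.5 bp. The Foxa1 peak lay wholly inside the Foxa2 peak in 61.6% of these members. Between the narrower EGS peaks of replicate 1 the median distance between a Foxa1 and a Foxa2 middle was 31.75 bp (196 members), near the 30.25 bp between the Foxa1 EGS lists (128 members) and the 26 bp between the Foxa2 EGS lists (130 members).

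**Figure D4:**
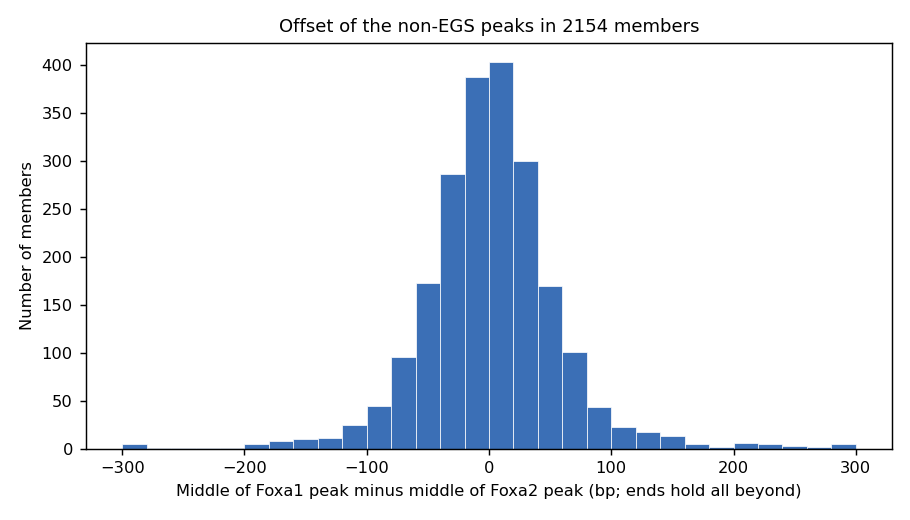
Distance from the middle of the Foxa2 non-EGS peak to the middle of the Foxa1 non-EGS peak (x axis, bp) in 2154 members, in bins whose heights give the number of members (y axis). The outermost bins hold all members beyond them, and 1571 members lie within 50 bp of 0.

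Members were wide single regions. Their median width was 550 bp (lowest 109, highest 1392), against 608 bp in regions of all 3 lines and 431 and 376 bp in regions of line 4a2 and line 4a1 alone. Width grew with the number of lists, from a median of 534 bp in 2 lists to 634 bp in all 6, and a merged region can only widen as peaks are added to it. The 2 widest members were on chromosome 8 (14404912 to 14406303 in mm9, 1392 bp, 3 lists) and chromosome 1 (163257238 to 163258627, 1390 bp, 5 lists).

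Most had no other member close by. The nearest other member was a median of 193.8 kb away, and 2223 of 2395 had no other member within 10 kb. Regions of all 3 lines (median 1473 kb to the next of their class) and of line 4a1 alone (424.6 kb) lay further apart, and regions of line 4a2 alone (46.3 kb) and of line 4a3 alone (0.735 kb) lay closer together. Groups of 3 members within 10 kb steps were found 4 times, and none was larger. They lie on chromosome 17 (39980611 to 39985461) and chromosome 12 (75304999 to 75313421), and also on chromosome 1 (99807159 to 99816450) and chromosome 4 (120947750 to 120957300). The tightest, on chromosome 17, spans 4.851 kb and its 3 members were in 2 lists each. Counting merged regions of any class, 757 members (31.6%) had a neighbour within 10 kb.

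All 20 chromosomes with merged regions held members. As a share of the regions with a Foxa2 peak, members ranged from 16.5% (12.0 to 21.8) on chromosome X to 23.4% (19.9 to 27.1) on chromosome 8, and these intervals overlap.

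Foxa3 peaks of line 4a3 were mostly far from members. The median gap to the nearest was 273.7 kb, against 225.2 kb for regions of line 4a2 alone and 391.3 kb for regions of line 4a1 alone. A Foxa3 peak lay within 1 kb of 29 members (1.21%, 0.81 to 1.73) and within 10 kb of 153 (6.39%, 5.44 to 7.44). The 3 members nearest to a Foxa3 peak were 11 bp from it on chromosome 11 (120096398 to 120096838), 62 bp on chromosome 1 (132658010 to 132658611) and 69 bp on chromosome 5 (90733517 to 90733926), each in 1 Foxa1 and 1 Foxa2 list. Just outside the set, the 3 regions of all 3 lines with the smallest overlap of a Foxa3 peak overlapped it by 27 bp on chromosome 8 (73047041 to 73047624), 38 bp on chromosome 12 (81045603 to 81046439) and 53 bp on chromosome 9 (69917454 to 69918386).

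The Flag list of line 4a3, which the rule did not use, had peaks at some members although these hold no Foxa3 peak of the same line. Of the 2395 members, 170 (7.10%, 6.10 to 8.20) held a Flag peak of line 4a3, against 3.47% of all 16880 merged regions. The share was 44.5% (39.7 to 49.4) in the 418 regions of all 3 lines, 1.29% (1.06 to 1.56) in regions of line 4a2 alone, 1.79% (1.09 to 2.74) in regions of line 4a1 alone and 1.20% (0.89 to 1.59) in regions of line 4a3 alone. The interval of members overlaps none of these. Shares were not computed for the 351 regions of 4a2 and 4a3 and the 20 of 4a1 and 4a3. These held 45 and 5 of the Flag peaks. The share rests on which libraries define the members: it was 20.5% of 487 members without the Foxa2 non-EGS library and 18.4% of 667 without the Foxa1 non-EGS library. The 3.47% was not recomputed without these libraries, so these shares cannot be set against it. The Flag antibody gave 1 library per line, so no test across libraries was possible. The title of the line 4a3 Flag library ends in the same code as that of the Foxa3 EGS library of replicate 1, which the rule used.

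Seen from the 883 Flag peaks of line 4a3, 171 (19.4%, 16.8 to 22.1) lay in members, 192 (21.7%, 19.1 to 24.6) in regions of all 3 lines and 48 (5.44%, 4.03 to 7.14) in regions of line 4a3 alone. Another 300 (34.0%, 30.9 to 37.2) overlapped no Foxa peak of iHep cells. Flag peaks in members had a median percentile of 58.2 within the Flag list, against 79.1 for those in regions of all 3 lines and 38.6 for those in regions of line 4a3 alone. Of 167 that overlapped a Foxa2 non-EGS peak of a member, 119 (71.3%) had their middle within 100 bp of its middle.

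The Flag share rose with the number of Foxa1 and Foxa2 lists that held the member. It was 2.71% (1.99 to 3.60) of members in 2 lists, 10.3% (7.49 to 13.8) in 3, 19.6% (14.4 to 25.7) in 4, 31.4% (20.9 to 43.6) in 5, and 59.5% (42.1 to 75.2), or 22 of 37, in all 6. The interval at 2 lists, where most members lie (1697), holds the 3.47% of all merged regions. Regions of all 3 lines with the same number of Foxa1 and Foxa2 lists had higher shares, from 19.7% (11.5 to 30.5) in 2 lists to 78.8% (65.3 to 88.9) in 6. The intervals of both classes were apart at 2, 3, 4 and 5 lists and overlapped at 6. Within members in the highest 20% of the Foxa2 non-EGS list the Flag share was 10.6% (8.89 to 12.6), and in the lowest 20% it was 1.21% (0.15 to 4.31).

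EGS peaks moved with the Flag share, in a split that largely overlaps the split by number of lists. Each line has 1 non-EGS list, so members in 3 or more lists all hold an EGS peak. Of the 1697 members in 2 lists, 1566 hold none. Members with an EGS peak of either line held a Flag peak in 16.8% (14.3 to 19.5) of 829 cases, and members without one in 1.98% (1.35 to 2.80) of 1566. The former interval lies above the 3.47% of all merged regions and the latter below it. Both Flag libraries are EGS libraries, and the part of EGS in the Flag share was not tested. Of the 170 members with a Flag peak, 124 were in 3 or more lists (72.9%), against 25.8% of the 2225 without. Their median percentile in the Foxa2 non-EGS list was 91.8, against 76.6. They were also wider, with a median of 616.5 bp against 545 bp, and nearer to a Foxa3 peak of line 4a3, with a median gap of 151.5 kb against 292.0 kb. Of the 100 highest Flag peaks, 15 lay in members and 66 in regions of all 3 lines. Among members in all 6 lists, 15 of 37 had no Flag peak.

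**Figure D5:**
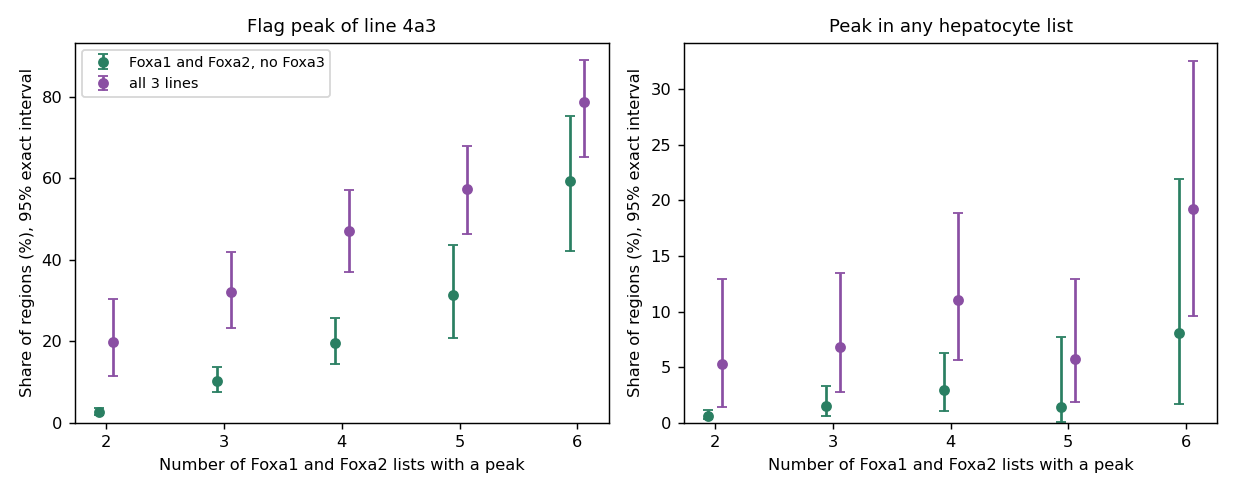
Share of regions (y axis, %, with 95% exact intervals) with a Flag peak of line 4a3 (left) or a peak in any hepatocyte list (right), by the number of Foxa1 and Foxa2 lists that hold the region (x axis), for members (green) and regions of all 3 lines (purple). The Flag share of members goes from 2.71% in 2 lists to 59.5% in 6.

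The Flag list of line 4a2 is short, with 21 peaks, and 1 of them lay in a member. Of all merged regions, 0.077% held a peak of that list. It has too few peaks to describe the members further.

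Few members held a peak in adult hepatocytes. A peak of any hepatocyte list was present in 27 members (1.13%, 0.74 to 1.64), against 2.42% of all merged regions. The share was 8.85% (6.31 to 12.0) in regions of all 3 lines and 8.84% (7.24 to 10.7) in regions of line 4a1 alone. It was 0.43% (0.31 to 0.60) in regions of line 4a2 alone and 4.72% (4.09 to 5.41) in regions of line 4a3 alone. Shares were not computed for regions of 4a2 and 4a3 or of 4a1 and 4a3. Without the Foxa2 non-EGS library the share was 4.31% (2.69 to 6.52) of 487 members. Without the Foxa1 non-EGS library it was 3.30% (2.08 to 4.95) of 667. The 2.42% belongs to the merged regions of all 9 lists. It was not recomputed without these libraries, so these shares cannot be set against it. With 166, 244 and 1091 peaks, the hepatocyte Foxa1, Foxa2 and Foxa3 lists are short, and each is 1 library without a replicate.

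The hepatocyte Foxa2 antibody gave most of these. It had a peak in 24 members (1.002%, 0.64 to 1.49), and this interval holds its background of 0.752% of all merged regions. The hepatocyte Foxa3 list had a peak in 7 members (0.29%, 0.12 to 0.60), below its 1.61% of all merged regions, and the hepatocyte Foxa1 list in 4 (0.17%, 0.05 to 0.43), below its 0.616%. Of the 27 members, 18 were in the Foxa2 list alone, 2 in the Foxa1 list alone, 1 in the Foxa3 list alone, 4 in 2 lists and 2 in all 3. Seen from the hepatocyte lists, 24 of 244 Foxa2 peaks (9.84%, 6.40 to 14.3) lay in members, against 7 of 1091 Foxa3 peaks (0.64%, 0.26 to 1.32).

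Here too EGS peaks moved with the share: 24 of 829 members with an EGS peak (2.90%, 1.86 to 4.28) and 3 of 1566 without one (0.19%, 0.04 to 0.56) held a hepatocyte peak. All hepatocyte libraries are EGS libraries, and the part of EGS was not tested. Of the 37 members in all 6 lists, 3 (8.11%, 1.70 to 21.9) held a hepatocyte Foxa2 peak. At 6 lists, regions of all 3 lines reached 17.3% (8.23 to 30.3), and the intervals overlap.

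The 37 members in all 6 lists are 1.54% of the set and rank above most of it. Their median percentile was 98.4 in the Foxa2 non-EGS list (lowest 77.8, highest 99.99), against 78.0 over all members with a peak there, and 91.9 in the Foxa1 non-EGS list (lowest 8.09, highest 99.7). In the EGS lists the medians were 80.2 and 47.6 for Foxa1 and 73.3 and 48.8 for Foxa2, with lowest values of 12.1, 4.06, 2.61 and 4.04. They were a median of 233.0 kb from a Foxa3 peak of line 4a3 (lowest 2.06 kb). Positions are in mm9, starts counted from 1, and no gene is given since the annotation at hand is of another build.

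The member with the highest mean percentile over the 6 lists (91.5) lies on chromosome 5 from 99713346 to 99713953. Its percentiles were 94.5, 97.4 and 91.8 in the Foxa1 lists (EGS of replicates 1 and 2, non-EGS) and 91.4, 74.8 and 99.1 in the Foxa2 lists in the same order. It also held a hepatocyte Foxa2 peak and a Flag peak of line 4a3, the latter at percentile 28.3 of the Flag list. Its nearest Foxa3 peak was 31.0 kb away.

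The second, on chromosome 1 from 75334226 to 75334928 (mean percentile 90.4), ranked 10 in the Foxa1 non-EGS list, at percentile 99.7. It had 96.9 and 66.5 in the Foxa1 EGS lists, 84.7 and 94.7 in the Foxa2 EGS lists and 99.6 in the Foxa2 non-EGS list. Its Flag peak was at percentile 88.0, and no hepatocyte list held it. The third, on chromosome 8 from 45241039 to 45241658 (mean percentile 85.3), had 98.7, 66.5 and 96.6 for Foxa1 and 57.4, 93.2 and 99.1 for Foxa2, with a Flag peak at percentile 81.1. These members rank high in both non-EGS lists and vary more in the EGS lists.

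Chromosome 9 held a pair of leading members without a Flag or hepatocyte peak. The member from 61186903 to 61187580 had percentiles of 98.6, 47.6 and 86.0 for Foxa1 and 97.1, 76.0 and 99.8 for Foxa2. The member from 61656156 to 61657075 held the second highest peak of the whole Foxa2 non-EGS list, was at 99.6 in the Foxa1 non-EGS list, and had 94.5 and 56.3 in the Foxa1 EGS lists and 90.5 and 48.8 in the Foxa2 EGS lists. The nearest Foxa3 peaks were 574.5 kb and 105.0 kb away. A site near the top of the Foxa2 list can thus lack a called Foxa3 peak and a listed Flag peak of line 4a3. Weaker Flag peaks may have been left out of that list. Further along chromosome 9, another member in all 6 lists (61751800 to 61752570) ranked 3 in the Foxa2 non-EGS list. It did hold a Flag peak of line 4a3, and its nearest Foxa3 peak was 9.491 kb away.

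The other members among the first 10 by this rule were in all 6 lists with mean percentiles of 74.7 to 82.8. A Flag peak of line 4a3 was present on chromosome 3 (69596579 to 69597548), on chromosome 19 (28240489 to 28241050) and on the other member of chromosome 8 (106996184 to 106996841). The members on chromosome 11 (20246306 to 20246889) and chromosome 12 (46171047 to 46171733) had none, and the latter held a hepatocyte Foxa2 peak. Of the 10, 6 held a Flag peak and 2 a hepatocyte Foxa2 peak.

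The members in most Flag and hepatocyte lists were of another kind. Those on chromosome 17 from 39984823 to 39985461 and from 39983095 to 39983275 held peaks of all 3 hepatocyte antibodies and of the Flag list, but were in 1 Foxa1 and 1 Foxa2 list each. The Foxa1 list was EGS replicate 2 for both. No filter for repeated sequence was applied, and whether these members lie in such sequence was not checked. They lie 3.012 and 1.284 kb from a Foxa3 peak and under the widest Flag peak, 5953 bp. That peak also has the highest score of the Flag list. Without the 3 members under that Flag peak, the Flag share was 6.98% and the hepatocyte share 1.003%, over 2392 members. The next, on chromosome 14 (86598783 to 86598933), held hepatocyte Foxa2 and Foxa3 peaks and a Flag peak at percentile 94.7, was in 3 EGS lists and no non-EGS list, and lay 1216.6 kb from a Foxa3 peak.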

How the data were processed

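The 14 deposited peak lists of this series of 24 samples (10 are input samples, not used here) were analysed. The build mm9 and the tools MACS2 2.1.0, BWA 0.6.2 and bedtools 2.16.2 are listed per the submitters' processing notes, which give no role or setting for them. The deposited score of each peak is the authors' own value, and its scale is not stated. It was used only for its percentile within a list, because scores start at 50.0 in the Flag list from line 4a3 and just above 5 elsewhere. Each list belongs to 1 library. How peaks were thresholded, and against which input, is not stated in the labels.

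Peaks of the 9 iHep Foxa lists were merged at 1 bp overlap, and regions were compared with the other lists at the same overlap (Python 3.11.15, pandas 2.3.3, numpy 2.4.6, scipy 1.17.1). The merging was checked against bedtools and tested on simulated data. Regions named were the 10 members in most lists (ties by mean percentile), the 3 in most Flag and hepatocyte lists, the 3 nearest to a Foxa3 peak, the 3 regions of all lines that overlap one least, the 2 widest and the densest groups. Shares carry exact 95% Clopper-Pearson intervals, which treat regions as independent although neighbours may not be. Alternatives were score limits, joining distance, overlap, libraries with or without EGS, list counts and leaving out each library. No test was planned, since peak calls chose the members and the other lists have 1 library each. Members and rules were chosen with earlier results of these data known. Motifs, sequences and genes were not analysed, because the reference at hand is GRCm38.p6 and not mm9.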

Additional observations from a re-analysis of the deposited data

How the results depend on the processing

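The number of members (2395), the share with a Flag peak of line 4a3 (7.10%) and the share with a hepatocyte peak (1.13%) were recomputed under other choices. The shares over all merged regions (3.47% and 2.42%) were not recomputed. The shares of members below therefore have no matching background and cannot be set against these 2 values. The higher-scoring 50% of each list gave 1236 members with shares of 8.33% and 1.70%, and the 300 highest peaks of each list gave 217 members with 24.4% and 5.99%. EGS libraries alone gave 442 members with 29.4% and 6.79%, and members in at least 2 lists of each line numbered 214 with 29.9% and 3.27%. Non-EGS libraries alone left the count within 1.5 times and gave a hepatocyte share of 0.54%. Leaving out each of the 9 libraries in turn gave 487 to 2621 members, Flag shares of 6.55% to 20.5% and hepatocyte shares of 0.81% to 4.31%. The lowest count and both highest shares came without the Foxa2 non-EGS library, and without the Foxa1 non-EGS library the values were 667 members, 18.4% and 3.30%. Joining peaks within 1 kb, an overlap of at least 50%, or no Foxa3 peak within 1 kb kept the count within 1.5 times and both shares inside their intervals, as did leaving out members under the widest Flag peak, a choice made after seeing the data. The cause of these changes was not tested, beyond that fewer Foxa1 or Foxa2 lists or peaks leave fewer members. Leaving out a Foxa3 list can add members. The count was 2500 without the Foxa3 EGS library of replicate 1 and 2621 without the Foxa3 non-EGS library. Motif alternatives were not run. No paired analysis was possible because no result comes from a test.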
